A study of Mus musculus with 32 samples.

Results

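The 158 regions described here were called for CHD4 2h after induction of Ikaros (IKZF1) and overlapped no called Ikaros peak at any time. The peaks of all 8 CHD4 lists were merged into 15355 regions, and a member had to overlap a peak in both CHD4 2h lists and in none of the 8 Ikaros lists. Of the merged regions, 3015 (19.6%) had CHD4 in both 2h lists, and 2857 of these overlapped Ikaros in at least 1 list and served as the comparison. The members were 1.03% of all merged regions. CHD4 at 2h and Ikaros calls chose the members, so both are given as description only.

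The cells were B3, a mouse pre-B cell line transduced by retrovirus with HA-tagged Ikaros fused to ERt2. This estrogen receptor domain is used to keep a protein out of the nucleus until 4-hydroxytamoxifen (4-OHT) is added. All groups carried this construct. The 0h cells received no 4-OHT, and the 30m, 1h and 2h cells received 500 nM 4-OHT for 30 min, 1 h and 2 h. HA-Ikaros, CHD4 and the acetylated histone H3K27ac were each mapped by ChIP-seq in 2 replicates per time, which gave 24 peak lists. The labels do not say that replicates were separate cultures, so the p-values measure the spread between libraries, which may be technical. H3K27ac marked the promoters of 10 and 9 of 10 pre-B marker genes in the 0h libraries, and of 2 and 1 of 10 genes of other lineages (Hbb-bs in both). The lists held 2488 to 9593 CHD4 peaks, 5373 to 14874 Ikaros peaks and 21468 to 33664 H3K27ac peaks. Without 4-OHT the 0h Ikaros lists already held 7822 and 9527 peaks, beside 9181 and 5373 at 30m, so 0h was not free of Ikaros peaks. The most common background that fold and p imply was 1.98 to 3.40 fragments per base in the Ikaros lists and 2.69 to 3.75 in the H3K27ac lists. No depth could be had for the CHD4 lists, whose broad peaks carry averages. A region without a peak was below the threshold of that list and was not shown to be unbound. The Ikaros lists come from ChIP of the HA tag, so a region without Ikaros here is one without a called peak of the tagged protein. The paper states that pre-B cells express the related factor IKZF3, which these lists do not map.

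CHD4 is the ATP-dependent nucleosome remodeller of the NuRD complex, which also holds histone deacetylases. NuRD is brought to chromatin largely by transcription factors, and in lymphocytes Ikaros is a well known partner. H3K27ac marks active promoters and enhancers, and the NuRD deacetylases can remove it.

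The central 200 bases of the 2 members with the highest CHD4 rank at 2h (in Zswim6 and at Ppp4r2), of the next such member without H3K27ac (in Cacng4) and of a member in the largest group of neighbouring members on chromosome X show how unlike each other these regions were. The bottom line is the highest ranked CHD4 2h region with Ikaros in all 8 lists, near Gm13445. The X member and that region were chosen after their values were seen. All are the plus strand of GRCm38 (mm10) from RefSeq. Capitals mark GGAA and GGGA, words of the Ikaros recognition core, and the E-box word CAGGTG, a known target of ZEB and basic helix-loop-helix factors, each on either strand.
chr13:107858912-107859111: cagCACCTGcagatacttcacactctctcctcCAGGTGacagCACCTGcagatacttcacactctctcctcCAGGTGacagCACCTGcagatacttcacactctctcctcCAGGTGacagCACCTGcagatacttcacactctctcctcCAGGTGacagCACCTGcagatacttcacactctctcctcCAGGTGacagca
chr6:100833148-100833347: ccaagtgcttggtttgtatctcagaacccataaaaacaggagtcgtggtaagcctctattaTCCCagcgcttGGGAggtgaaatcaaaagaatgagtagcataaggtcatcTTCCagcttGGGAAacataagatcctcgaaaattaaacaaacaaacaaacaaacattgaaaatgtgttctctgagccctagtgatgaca
chr11:107784740-107784939: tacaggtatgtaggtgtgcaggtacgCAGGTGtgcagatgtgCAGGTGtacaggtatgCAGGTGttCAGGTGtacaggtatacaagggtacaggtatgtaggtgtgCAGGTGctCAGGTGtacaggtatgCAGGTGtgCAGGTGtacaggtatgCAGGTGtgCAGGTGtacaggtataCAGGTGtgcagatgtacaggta
chrX:94969867-94970066: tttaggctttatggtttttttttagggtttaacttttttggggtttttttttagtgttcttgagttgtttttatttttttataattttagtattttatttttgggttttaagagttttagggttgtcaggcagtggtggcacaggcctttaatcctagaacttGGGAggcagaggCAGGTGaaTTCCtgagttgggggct
chr2:35497286-35497485: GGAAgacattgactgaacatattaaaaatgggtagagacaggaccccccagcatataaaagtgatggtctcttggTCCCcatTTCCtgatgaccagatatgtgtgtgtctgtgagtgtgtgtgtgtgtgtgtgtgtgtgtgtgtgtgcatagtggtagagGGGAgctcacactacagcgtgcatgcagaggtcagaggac

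The chromosome 13 sequence, in an intron of Zswim6, was an exact tandem repeat. Shifted by 39 bases it matched itself at 100% of positions, and it held no Ikaros core word and 10 E-box words. The whole region of 2014 bp held 90 E-box words. The chromosome 11 sequence, in an intron of Cacng4 (a calcium channel subunit), matched itself at 82.1% of positions at a shift of 88 bases and held 11 E-box words, with 63 in its 2271 bp. The sequence at Ppp4r2 (a regulatory subunit of protein phosphatase 4) held 5 Ikaros core words and no E-box word. In the X sequence all 200 bases were soft-masked as repeats. The region with Ikaros near Gm13445 held 4 Ikaros core words.

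The search for tandem repeats and for CAGGTG was added after these sequences were seen. The central 200 bases of 7 of the 158 members (4.43%) matched themselves at 80% or more of positions at some shift of 10 to 100 bases. The same held for 0.69% of all merged CHD4 regions and for 0.665% of the regions with Ikaros. None of the 7 was among the members called for CHD4 at 2h only, and 4 were among the 25 members without any H3K27ac peak. CAGGTG or CACCTG was not more widespread in the members, where 11.4% of central windows held it, than in the regions with Ikaros (13.7%) or in all merged regions (14.2%). Another member rich in the word, chr15:101196108-101196838 near Mir6962, held 24 copies in 731 bp, had CHD4 in 2 of the 6 earlier lists and had no H3K27ac peak.

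CHD4 was called less often at the members than at the regions with Ikaros at every earlier time. At 0h, 24 of the 158 members (15.2%) had a CHD4 peak in replicate 1 and 47 (29.7%) in replicate 2. Over all merged regions the 0h shares were 15.2% and 37.5%, and at the regions with Ikaros they were 41.2% and 71.9%. At 30m the members' shares were 16.5% and 13.3%, beside 61.5% and 54.1% with Ikaros. At 1h they were 33.5% and 38.6%, beside 75.1% and 70.8% with Ikaros. Over all merged regions the share was 25.1% and 21% at 30m and 33.9% and 31.4% at 1h, but these include regions outside the 2h lists and are no like set. The difference from the regions with Ikaros was negative in 6 of 6 libraries, from -45.1 to -26.0 percentage points, with a mean of -38.0 (SD 7.28, n = 6 libraries, exact two-sided paired permutation test p = 0.03125, the smallest this design allows, Benjamini-Hochberg adjusted p = 0.0365 over 7 tests). It was -31.4 points among regions within 1 kb of a transcription start site (TSS), where the adjusted p was 0.0729, and -43.9 points farther away. The CHD4 lists differed in length, and with lists cut to equal size the difference was -23.2 points (adjusted p = 0.0365, negative in 6 of 6 libraries, same exact test).

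The direction of this difference changed with the threshold. With a −log10 q of at least 3 in all lists, 7 members remained beside 119 regions with Ikaros, and their earlier CHD4 shares were 25.9 points higher (higher in 6 of 6 libraries, exact paired permutation p = 0.03125, adjusted p = 0.0547). Of these 7, the regions in Zswim6, at Ppp4r2, at Asmt, near Gm21887 and near Gm39469 were among the 158, and the regions at chr2:154602458-154603756 and chrX:170009851-170019045 were not.

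**Figure D1:**
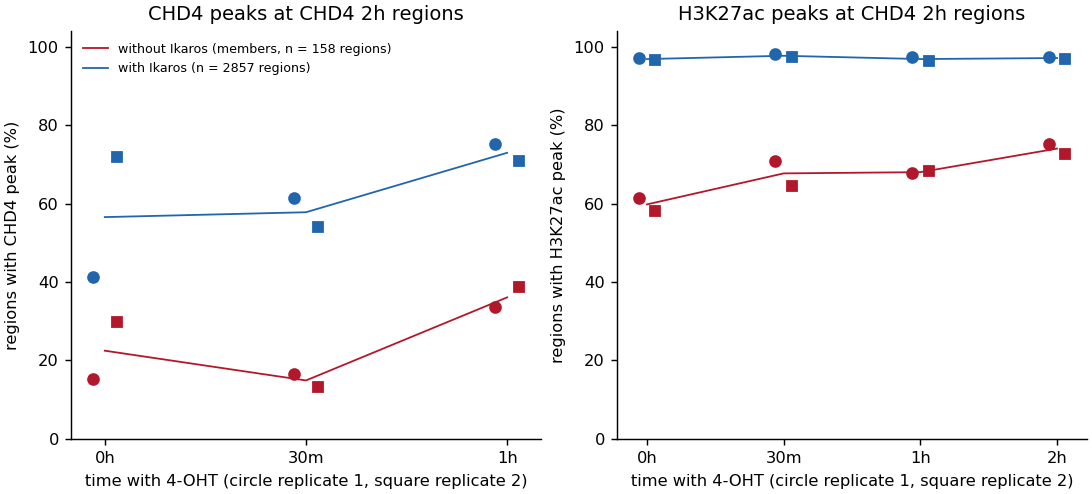
Share of CHD4 2h regions (%) with a CHD4 peak at 0h, 30m and 1h (left) and with an H3K27ac peak at 0h to 2h (right), for the 158 regions without Ikaros (red) and the 2857 with Ikaros (blue). Circles are replicate 1, squares replicate 2 and lines join the means of 2 libraries at evenly spaced times. Every red point lies below the blue point of its library, and the red H3K27ac points go from 58.2% and 61.4% at 0h to 72.8% and 75.3% at 2h.

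No trend of the members' own CHD4 share over 0h, 30m and 1h passed the test (Spearman rho = 0.598 with p = 0.267 and adjusted p = 0.267, Pearson r = 0.562 with p = 0.244, exact permutation tests, n = 6 libraries). The relation rested on single times. Without the 0h libraries r was 0.981 (n = 4), and without the 1h libraries it was -0.585 (n = 4). The 0h replicate 1 list, with 2488 peaks, was the shortest of all CHD4 lists.

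Counted by region, 69 members (43.7%) had CHD4 in no list before 2h, beside 33.3% of all merged regions and 6.48% of the regions with Ikaros. Another 28 (17.7%) were called in 1 earlier list, beside 29.1% of all merged regions, and 28 (17.7%) in 2, beside 12.3%. In 3, 4 and 5 earlier lists there were 8, 9 and 8 members (5.06%, 5.70% and 5.06%, beside 7.90%, 6.17% and 5.44%). All 6 held 8 members (5.06%, beside 5.82%). At 107 members (67.7%) CHD4 was called in neither 0h list, beside 59.6% of all merged regions and 24.8% of those with Ikaros. CHD4 in both 2h lists and neither 0h list covered 5.31% of all merged regions, a share that cannot be read against the members', since the rule put every member in both 2h lists and 19.6% of all merged regions were in both. The same limit holds for every other share of all merged regions in this paragraph, and only the regions with Ikaros are a like set. Both 0h lists held 20 members (12.7%, beside 12.3% of all merged regions and 37.9% with Ikaros). Both 30m lists held 15 (9.49%, beside 12.6% and 43.7%) and both 1h lists 38 (24.1%, beside 19.6% and 60.1%). The members thus ranged from regions seen at 2h only to regions present throughout. At 2h itself the median CHD4 fold of the members was 3.07 in replicate 1 and 3.12 in replicate 2, and of the regions with Ikaros 3.19 and 3.28.

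The 8 members called in all 8 CHD4 lists (5.06%, beside 4.71% of all merged regions and 25% of the regions with Ikaros) were mostly repeats or near a chromosome end. The share of all merged regions again includes regions outside the 2h lists, so only the regions with Ikaros, which were in both 2h lists, are a like set. By the measure above 3 of them were tandem repeats, and another 3 lay near the distal end of X or Y. The region in Zswim6 (chr13:107858005-107860018) had CHD4 folds of 3.57 and 3.92 at 0h, 2.62 and 2.71 at 30m, 7.42 and 5.08 at 1h, and 4.32 and 6.07 at 2h. The region in Cacng4 (chr11:107783705-107785975) had 3.58 and 3.61 at 0h, 3.19 and 3.54 at 30m, 5.15 and 6.53 at 1h, and 3.75 and 5.45 at 2h. The intergenic region chr2:33933241-33935291, 6822 bp from the long non-coding gene Gm13403, had 4.70 and 7.20 at 0h, 3.39 and 5.15 at 30m, 9.83 and 8.31 at 1h, and 3.32 and 7.33 at 2h. In each of these regions the highest fold was in a 1h list, and no H3K27ac list held a peak. Folds of different lists share no scale, so these are given as the lists state them and were not tested.

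The region in Asmt (chrX:170672972-170673548), which encodes the last enzyme of melatonin synthesis and lies in the pseudoautosomal region shared by X and Y, was also called throughout, with folds from 2.75 at 0h to 5.10 at 30m and an H3K27ac peak in 1 list only. Pcbd2, a pterin dehydratase gene, was the only one of the 8 with H3K27ac in all 8 lists. Its region (chr13:55726591-55728127) had CHD4 folds of 3.01 to 4.17 and H3K27ac folds of 14.2 to 23.1. The remaining 3 were chrX:170003283-170008578, 1081 bp from Gm21887, chrY:90810569-90815300 in Gm47283, and chr9:124256371-124257835, 24304 bp from Gm39469. The last had the lowest 2h folds of all members (1.78 and 1.91), 86.2% soft-masked bases and a self-match of 89.3% at a shift of 31 bases.

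Of the 5 highest ranked members called at 2h only, 3 had H3K27ac and 2 did not. Ncf1, a subunit of the phagocyte NADPH oxidase (chr5:134229728-134230590, 103 bp away), had CHD4 folds of 3.37 and 3.44 at 2h and H3K27ac in all 8 lists, at 5.53 to 7.11, and was 65.7% soft-masked. Atp6v0d1, a proton pump subunit (chr8:105564622-105565101), had 3.23 and 3.78 and H3K27ac in 6 lists, and was 75.4% soft-masked. The region chr6:128733924-128734534, near the pseudogene Gm43907, had 3.55 and 3.27 and H3K27ac in all 8. The regions chrX:124372295-124373137 (3.68 and 3.35) and chrX:124875921-124877009 (3.53 and 3.20), near pseudogenes of Rps12, had no H3K27ac peak, and their bases were 95.6% and 93.8% soft-masked.

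Where CHD4 was called earlier at a member, its peak also ranked lower within its list. The mean percentile rank of the fold was 34.5 to 50.4 at the members and 53.4 to 57.1 at the regions with Ikaros. The difference averaged -10.8 rank points (SD 6.18, n = 6 libraries, negative in 6 of 6, exact paired permutation p = 0.03125, adjusted p = 0.0365). Within 5 bins of CHD4 2h rank it was -7.02 and without chromosomes X and Y -6.51, both negative in 6 of 6 libraries. Within 1 kb of a TSS it was positive in 2 of 6 libraries, at 16.2 in 30m replicate 2 and 5.48 in 1h replicate 2. By the same exact permutation test it was -2.89 without regions over 50% soft-masked (adjusted p = 0.146), and 3.40, in the other direction, among peaks with a fold of at least 3 (adjusted p = 0.406). For the 7 members left at a −log10 q of 3 or more, it was 19.8, positive in 6 of 6 libraries (exact permutation test, adjusted p = 0.0547).

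H3K27ac was called at most members, and at more of them at later times. A peak was present at 97 of 158 (61.4%) and 92 (58.2%) at 0h, at 112 (70.9%) and 102 (64.6%) at 30m, at 107 (67.7%) and 108 (68.4%) at 1h, and at 119 (75.3%) and 115 (72.8%) at 2h. Over all merged regions the share was 77.8% and 75.8% at 0h, 81.2% and 77.6% at 30m, 77.6% and 74.5% at 1h, and 78% and 76% at 2h, with no such order. The 2h libraries were both above all others and the 0h libraries both below all others. The trend passed the test (Spearman rho = 0.878 with p = 0.0103 and adjusted p = 0.0181, Pearson r = 0.882 with p = 0.00516 and adjusted p = 0.00774, exact permutation tests, n = 8 libraries), and without the 2h libraries r was 0.777 (n = 6). The length of the H3K27ac lists moved in the same direction, with rho = 0.586 against time and rho = 0.786 against the members' share (n = 8). With lists cut to equal size the trend of the share was rho = 0.85 (adjusted p = 0.025). With a −log10 q of at least 3 it was rho = 0.513 over 7 members (adjusted p = 0.3).

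At the regions with Ikaros the H3K27ac share stayed between 96.4% and 98.2%, which left little room to rise. The members' share was lower in 8 of 8 libraries, by -38.3 to -22.1 points and by -29.8 on average (SD 5.59, exact paired permutation p = 0.0078125, the smallest possible, adjusted p = 0.0181). The gap narrowed over time (Spearman rho = 0.878 with p = 0.0103 and adjusted p = 0.0181, Pearson r = 0.911 with p = 0.00278 and adjusted p = 0.00774, exact permutation tests, n = 8 libraries, and r = 0.829 without the 2h libraries). For the 7 members left at a −log10 q of 3 or more, rho was 0.417 (exact permutation test, adjusted p = 0.318). Members with an H3K27ac peak also held weaker ones, with a mean percentile rank of 58.2 to 70.5 beside 76.7 to 85.3 with Ikaros, a difference of -16.2 (SD 1.70, 8 of 8 libraries negative, exact paired permutation p = 0.0078125, adjusted p = 0.0181).

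The gap lay mainly away from promoters. At the 94 members farther than 1 kb from a TSS, H3K27ac was called at 41.5% in both 0h libraries and at 59.6% and 57.4% at 2h, beside 94.9% to 97.3% at the distal regions with Ikaros. That difference averaged -46.0 points (adjusted p = 0.0181, exact paired permutation test). At the 64 members within 1 kb of a TSS the share was 90.6% and 82.8% at 0h and 98.4% and 95.3% at 2h, and the difference from promoter regions with Ikaros averaged -5.50 points (adjusted p = 0.0547, exact paired permutation test).

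By region, 88 members (55.7%) had H3K27ac in all 8 lists, beside 68.1% of all merged regions and 94.7% with Ikaros. None of the 8 lists held a peak at 25 members (15.8%, beside 14.9% and 1.23%). The other 45 members (28.5%, beside 16.9% and 4.1%) were called in 1 to 7 lists. Of the 64 promoter members, 52 had the mark in all 8 lists and 0 lacked it in all, so the 25 without it were all distal, with a median TSS distance of 19794 bp and a median of 50.8% soft-masked bases.

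H3K27ac was gained at 11 members (6.96%), in both 2h lists and neither 0h list, beside 1.55% of all merged regions and 0.42% of the regions with Ikaros. It was lost at 0 members (beside 1.63% and 0.21%). Only a region without a 0h peak can be gained. At 0h a peak was present at 61.4% and 58.2% of the members, 77.8% and 75.8% of all merged regions and 97.2% and 96.6% of the regions with Ikaros. The gained shares of the sets therefore rest on unlike bases and cannot be read as rates. These calls rest on 2 libraries a time and were not tested by region, and the members named here were chosen after their values were seen. In the kappa light chain locus, chr6:68922883-68924404, 6330 bp from Igkv13-85, had H3K27ac folds of 14.9 and 13.8 at 30m, 19.5 and 11.3 at 1h, and 8.95 and 7.72 at 2h, with no peak at 0h. CHD4 was called there at 2h only, and 83.8% of its bases were soft-masked. The region chr10:67201754-67202905, in an intron of the histone demethylase family gene Jmjd1c and 14835 bp from its TSS, had 4.12 and 3.84 at 30m, 3.40 and 4.55 at 1h, and 6.13 and 5.57 at 2h.

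**Figure D2:**
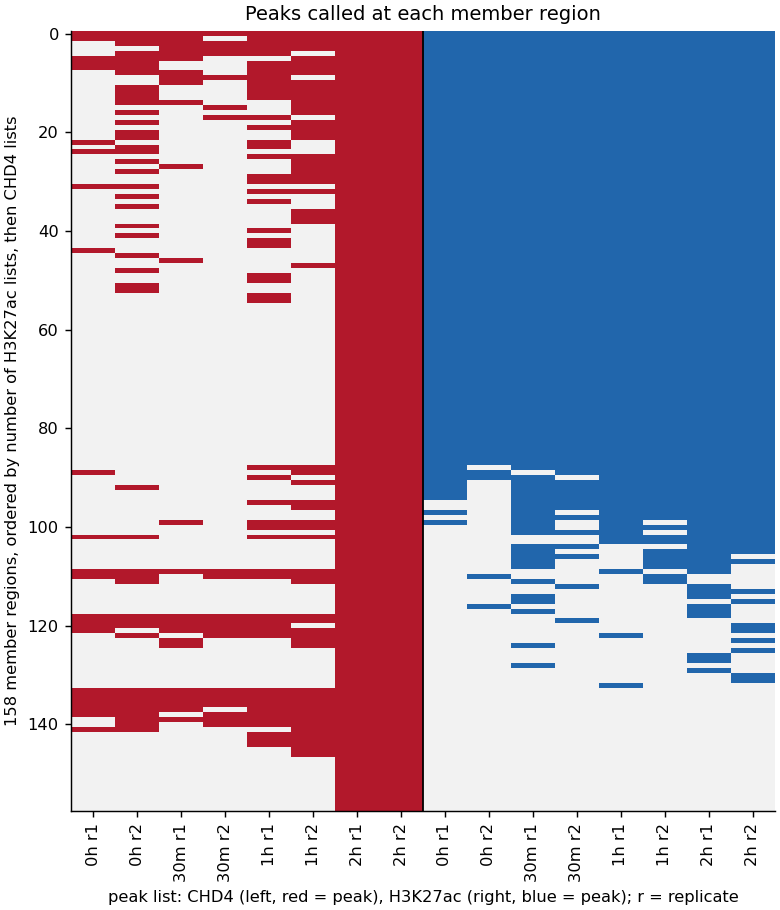
Peaks called at each of the 158 members (rows) in the 8 CHD4 lists (left, red) and the 8 H3K27ac lists (right, blue), with r for replicate. Rows are ordered by the number of H3K27ac lists and then of CHD4 lists, the 2h CHD4 columns are full by the rule, 88 rows are blue throughout and 25 have no blue.

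Among CHD4 2h regions grouped by their number of Ikaros lists, the members had the lowest shares. The earlier CHD4 share, averaged over 6 libraries, was 24.5% with no Ikaros list, 33.6% with 1, 39.6% with 2 to 4, 58.4% with 5 to 7 and 80.0% with 8. The H3K27ac share over 8 libraries was 67.4%, 88.6%, 93.4%, 98.4% and 98.5% in the same order. The 112 regions with Ikaros in exactly 1 list, which are just outside the rule, had a median width of 1392 bp, close to the members' 1342 bp, and their H3K27ac share was between 84.8% and 92.9%, above the members' 58.2% to 75.3%. The number of Ikaros lists is part of the rule, so these values are a description.

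**Figure D3:**
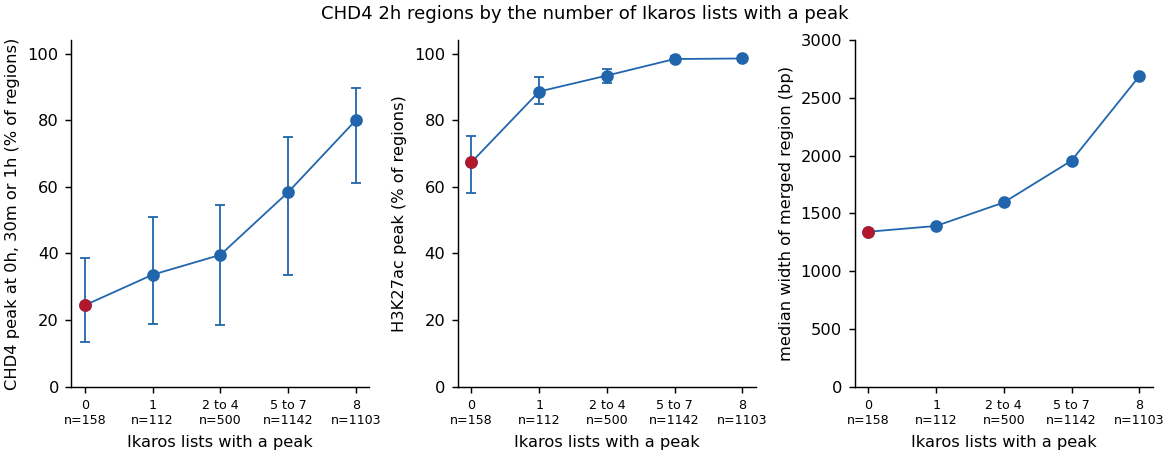
CHD4 2h regions grouped by how many of the 8 Ikaros lists held a peak, with the mean share (%) with a CHD4 peak over the 6 earlier libraries, the mean share (%) with an H3K27ac peak over 8 libraries, and the median width (bp). Bars run from the lowest to the highest library and red marks the members. All 3 values are lowest at 0 lists (24.5%, 67.4% and 1342 bp) and highest at 8 lists (80.0%, 98.5% and 2688 bp).

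Distance to Ikaros at the edge of the rule was short for some members. The nearest member lay 32 bp from an Ikaros peak of some list, 24 lay within 1 kb and 87 within 10 kb, with a median of 7128 bp. At 15 members no Ikaros peak lay within 100 kb. The CHD4 edge was also low, since the weakest members had −log10 q of 1.10 in replicate 1 and 1.03 in replicate 2, and 51 members were under 1.3 in at least 1 of the 2h lists. A further 3060 regions without Ikaros had CHD4 in only 1 of the 2h lists, 1383 in replicate 1 and 1677 in replicate 2.

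The members were narrower than the regions with Ikaros, and a narrow region has less room to overlap an Ikaros peak, so width is tied to the rule. The median merged width was 1342 bp (quartiles 970 and 1854, range 421 to 12512), beside 2110 bp with Ikaros and 822 bp over all merged regions. Within the 2h lists the median peak width was 637 bp at the members and 849 bp with Ikaros in replicate 1, and 904 and 1412 bp in replicate 2. The 3 widest members were chrX:94896697-94909208 (12512 bp), its neighbour chrX:94888669-94896117 (7449 bp) and chr12:52926664-52932653 (5990 bp, in an intron of Akap6, an anchoring protein of protein kinase A). Their bases were 93.7%, 92.5% and 96.0% soft-masked.

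Promoters took up 64 members (40.5% within 1 kb of a TSS), close to the 41.9% of all merged regions, beside 48.7% of the regions with Ikaros. With 3 kb in place of 1 kb the count was 83 (52.5%). The median TSS distance was 2236 bp, beside 1228 bp with Ikaros and 2238 bp over all merged regions, and 50 members lay over 10 kb away. The centre of a member was intergenic in 85, in an intron in 57, in an exon in 9 and in an untranslated region in 7.

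Repeats took up more of the members than of the other regions. Over 50% of bases were soft-masked in 44 members (27.8%), beside 9.81% of all merged regions and 3.22% of the regions with Ikaros, and the medians were 29.4%, 15.8% and 18.4%. The central 200 bases had a median GC content of 42.5%, beside 49% with Ikaros. At the 112 regions with Ikaros in exactly 1 list it was also 42.5%. GGGAA or its reverse complement was in 29.1% of the members' windows, beside 48.1% with Ikaros and 46.4% of all merged regions. GGAA or TTCC was in 75.3%, beside 90.6% and 89.3%. The Ikaros core words averaged 1.66 per 100 bp at the members, 2.41 with Ikaros and 1.80 at the 112 regions with Ikaros in exactly 1 list. GGGCGG, the GC box, was in 5.06% of windows beside 12.3%, CCAAT in 21.5% beside 20.9%, TGTGGT, the Runx core, in 11.4% beside 15.8%, CACGTG in 2.53% beside 3.29%, TGACTCA in 1.90% beside 4.38% and ATTTGCAT in 1.27% beside 1.19%, each on both strands. GGGAA contains GGAA, so these counts overlap. A match of letters is not a binding site.

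**Figure D4:**
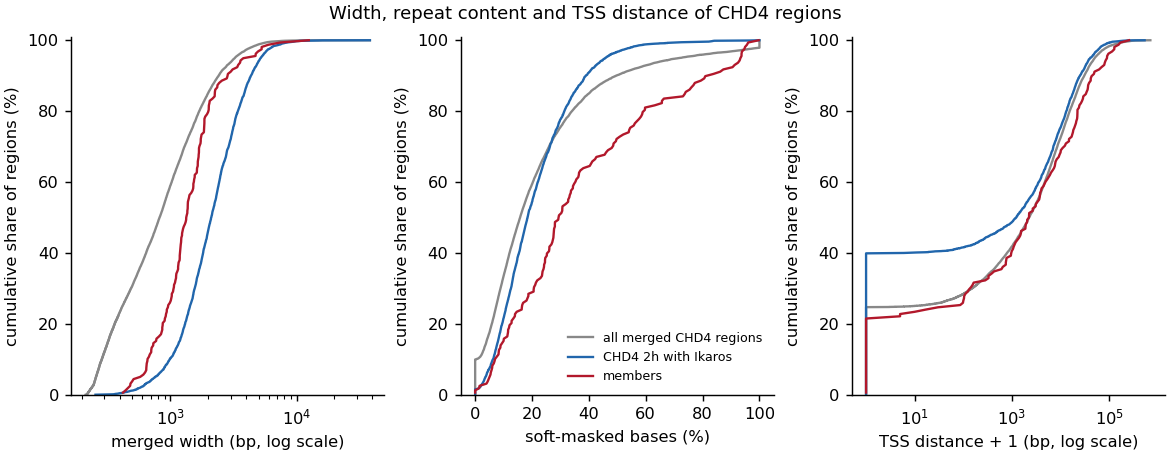
Cumulative share of regions (%) by merged width (bp, log scale), by soft-masked bases (%) and by distance to the nearest TSS plus 1 (bp, log scale), for the 158 members (red), the 2857 CHD4 2h regions with Ikaros (blue) and all 15355 merged regions (grey). The red line for width lies between the others, the red line for soft-masked bases lies below both over most of its range, and the red and grey TSS lines meet near their medians (2236 and 2238 bp) and part on both sides.

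Chromosome X held 15 of the 158 members (9.49%), beside 0.755% of all merged regions and 0.28% of the regions with Ikaros. Of the CHD4 2h regions on X, 65.2% had no Ikaros, beside 0.980% (chromosome 15) to 9.59% (chromosome 6) on the autosomes and 9.09% on Y. The X members came from few places. There were 7 in intergenic sequence at chrX:94876940-94976490, with a median of 93.3% soft-masked bases and no annotated gene in the span, and all 7 CHD4 2h regions of that span were members. H3K27ac was in none of the 8 lists at 3 of the 7 and in all 8 at 0. Another 3 lay around Mid1, the gene that crosses the pseudoautosomal boundary (chrX:169986151-170008578), and 2 lay in Asmt. The last 3, nearest to the pseudogenes Rps12-ps6 and Rps12-ps18 and to Gm21616, were 91.3% to 95.6% soft-masked and had no H3K27ac peak. Reads from near-identical copies cannot be told apart by position, and how the repeats bear on these calls was not tested. Without X and Y, 142 members were left, and without regions over 50% soft-masked 114.

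**Figure D5:**
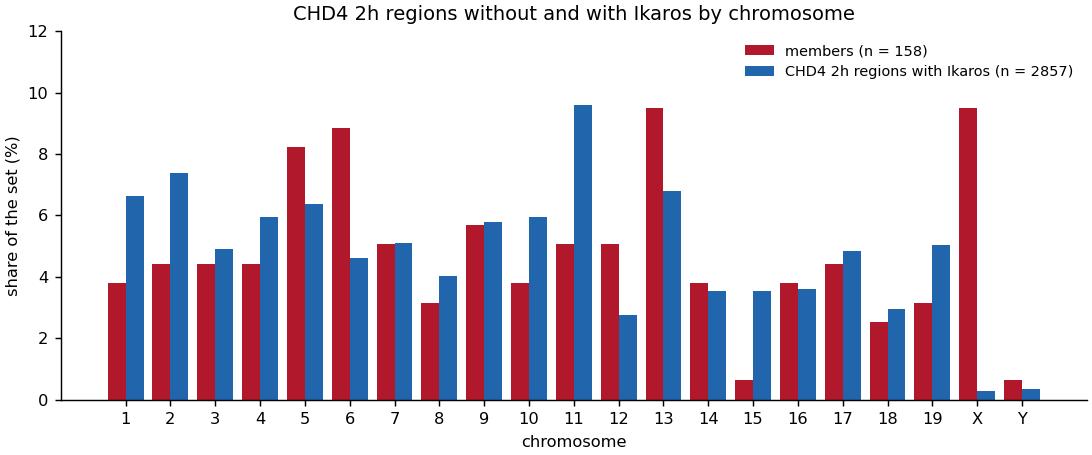
Share (%) of the 158 members (red) and of the 2857 CHD4 2h regions with Ikaros (blue) on each chromosome. Bars start at 0, and chromosome X holds 9.49% of the members and 0.28% of the regions with Ikaros.

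Chained at less than 100 kb, 30 members (19.0%) fell into 10 groups, the largest of 7, and 128 lay alone. Of the regions with Ikaros 67.4% fell into groups. That set held 2857 regions and the members 158, so the 2 shares cannot be compared. Whether the members were closer together than their number would give was not tested. For the 156 members with a fellow member on their chromosome, the nearest was a median of 4742 kb away. The groups of 3 included the one around Mid1, chr5:137658007-137724677 with Agfg2, chr6:47671371-47682608 and chr14:94466577-94605594. In the chromosome 6 group all 3 members had CHD4 in at least 5 of the 6 earlier lists, and in the chromosome 14 group all 3 were called at 2h only.

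The 10 highest ranked members included regions at promoters. Ppp4r2 (chr6:100832842-100833653) had CHD4 folds of 3.83 and 4.39 at 2h and 5.17 and 5.02 at 1h, with no peak at 0h, and H3K27ac in 5 lists. Dus3l, a tRNA-modifying enzyme (chr17:56763189-56764748), had 3.61 and 3.95 at 2h, CHD4 in 5 of 6 earlier lists and H3K27ac folds of 11.0 to 26.5. Pdcd6ip, which encodes the ESCRT partner ALIX (chr9:113708275-113708922), had 3.70 and 3.82 at 2h and 3.30 in 1 earlier list, at 0h. Ddx19a, an RNA helicase of mRNA export (chr8:110997922-110998632), had 3.38 and 4.42 at 2h and was 63.2% soft-masked. These 4 lay at or within 122 bp of their TSS, and all but Ppp4r2 had H3K27ac in all 8 lists. The nearest Ikaros peak of some list was 459 bp from the Ppp4r2 region. For Ddx19a, Pdcd6ip and Dus3l it was 21474, 32029 and 89648 bp away.

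Other members in these 10, or among the highest ranked of those without H3K27ac, were distal. The region chr14:33193227-33194410, 7719 bp from Wdfy4, a BEACH-domain protein gene, had CHD4 folds of 3.51 and 4.33 at 2h and H3K27ac folds that ranged from 7.49 at 1h to 39.1 at 30m. The region chr14:14351854-14354689 lay in an intron of Il3ra, the alpha chain of the interleukin-3 receptor, had 3.65 and 3.68 at 2h, 3.18 and 4.00 at 1h and no peak before, and was without H3K27ac in all 8 lists. The region chr16:81961141-81962331, 29230 bp from Gm49560, had 3.84 and 3.74. A distal member without H3K27ac in an intron of Mocos, chr18:24670600-24674048, had 3.26 and 4.61 at 2h and CHD4 in 5 of 6 earlier lists.

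By gene, 56 protein-coding genes had a TSS within 1 kb of a member, 0.255% of 21924. Of these, 54 had H3K27ac at the TSS in both 0h lists, which is 0.555% of the 9722 genes that did. The regions with Ikaros covered 1241 protein-coding genes, and 5 genes were in both sets. Of 15 gene lists, 14 had no gene at a member, where a list of 27 B-lineage transcription factors had 13 genes at regions with Ikaros, pre-B cell receptor signalling 14 of 21, the fast-repressed genes named in the study 6 of 17, immediate early genes 7 of 23, Zfp-named genes 34 of 365 and NuRD subunits 2 of 15. For the others the counts at regions with Ikaros were 6 of 37 for the cell cycle, 4 of 67 for clustered histones, 3 of 12 for the Notch pathway, 2 of 13 for the IL-7 receptor and STAT5, 2 of 17 for glycolysis, 1 of 22 for sterol synthesis, 1 of 14 for heat shock and 0 of 5 for the Ikaros family. Of all protein-coding genes 5.66% were at regions with Ikaros, and of those with H3K27ac at the TSS in both 0h lists 12.6%. The shares for clustered histones (5.97%), heat shock (7.14%) and sterol synthesis (4.55%) were below the second background. Those for glycolysis (11.8%), NuRD subunits (13.3%), the IL-7 receptor and STAT5 (15.4%) and the cell cycle (16.2%) were near it. The list shares count all genes of a list. Of the 365 Zfp-named genes (9.32%) only 246 had H3K27ac at the TSS in both 0h lists, so the second background is no like base for them. Since 0.255% of all genes were at a member, a count of 0 is near the background for lists of this size.

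The list with members was the cytosolic ribosomal proteins, with 2 of 83 genes (2.41%), beside 4 of 83 (4.82%) at regions with Ikaros. Rpl37a, of the large subunit (chr1:72710468-72711842), had CHD4 folds of 3.58 and 3.78 at 2h, 3.86 in 1 of the 30m lists and 3.79 in 1 of the 1h lists, and H3K27ac folds of 11.7 to 24.6. Rps13, of the small subunit (chr7:116334362-116335905), had 2.88 and 3.07 at 2h, 3.20 in 1 of the 0h lists, and H3K27ac folds of 16.4 to 32.8. The TSS of the antisense gene Gm44777 also lay within 1 kb. Both had H3K27ac in all 8 lists. Other promoter members, named after their values were seen, included Cox5b and Ndufb4 of the respiratory chain, Taf5 of the TFIID complex, Cdk7, the kinase of TFIIH, Cnot2, Cpsf6 and Hp1bp3, each with H3K27ac in all 8 lists. An Ikaros peak of some list lay 40 bp from the Cnot2 region, 653 bp from Taf5, 718 bp from Hp1bp3 and 974 bp from Cpsf6. For Cdk7, Ndufb4 and Cox5b the nearest was 11398, 30426 and 74500 bp away.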

How the data were processed

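HA-Ikaros, CHD4 and H3K27ac were mapped in B3 cells at 0h, 30m, 1h and 2h of 4-OHT with 2 replicates each. The 8 input libraries have no list of their own and were not analysed here. The authors aligned reads to mm10 with Bowtie2 (2.4.2), handled duplicates with Picard (2.23.7) and called peaks with MACS2 (2.2.7.1), narrow ones for Ikaros and H3K27ac and broad ones for CHD4, 1 list per library. The submitters' processing notes also name deepTools (3.5.0). The methods do not describe the 30m libraries, and use of a blacklist on the lists is not stated. Per the labels, chromatin was fragmented by sonication or MNase, without saying which for a library. The paper's ChIP-seq methods state that chromatin was digested and name no enzyme.

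The lists deposited by the authors hold a display score, which was not used, a fold enrichment over local background (a ratio), and p-values and q-values as −log10. In broad lists these are averages over a peak. The fold as deposited ranked peaks within a list, as a percentile, and the −log10 values set thresholds. Fold and p of narrow peaks with −log10 p under 40 gave the most common background, which is the depth after the authors' scaling. The lists hold no read counts, so no count model was run and interval estimates from reads were not possible.

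The CHD4 peaks of 8 lists were merged where they touched, and an overlap needed 1 bp. The strongest overlapping peak gave a region its fold. TSSs came from GENCODE M21 and sequence from RefSeq GRCm38.p6, whose lower-case bases are the soft-masked repeats. Each of 7 measures gave 1 value per library. Trends were tested by exact two-sided permutation of Spearman's rho and Pearson's r over all 40320 orders (8 libraries) or 720 (6 libraries), and differences between members and comparison by exact two-sided paired sign changes (256 or 64 patterns). Benjamini-Hochberg adjustment covered the 7 tests, with 0.05 as threshold, and for Pearson's r the 3 trends alone. Everything else is description. Members, gene lists and the region rule were chosen with earlier results of these data known. Named members were the 10 with the highest mean 2h fold percentile, the 5 highest each called at 2h only, called in all 8 CHD4 lists or without H3K27ac, the 3 widest, the 3 largest groups (5 groups tied in size, of which 1 is not reported here) and those at listed genes. The alternatives were other thresholds on q and fold, overlap of 50%, a margin of 1 kb to Ikaros, other merging, lists of equal size, the Ikaros 2h lists alone, 5 bins of CHD4 rank, promoter or distal regions, a replicate block and leaving out libraries. Leaving out the sex chromosomes, masked regions and single libraries was added after the data were seen. Python 3.11.15, NumPy 2.4.6, SciPy 1.17.1 and pysam 0.24.0 were used, and the steps were tested on simulated data.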

Additional observations from a re-analysis of the deposited data

Results flagged for a closer look

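The difference in H3K27ac share between the CHD4 2h regions without and with Ikaros changed over time (rho = 0.878, exact permutation p = 0.0103, adjusted p = 0.0181, n = 8 libraries). It was -35.8 and -38.3 percentage points at 0h, -27.3 and -32.7 at 30m, -29.7 and -28.1 at 1h, and -22.1 and -24.1 at 2h. The share at the regions with Ikaros was at 96.4% or more in every library, so the change lay in the members' share. The lengths of the H3K27ac lists moved with time in the same direction (rho = 0.586), with lists of equal size rho was 0.878, and for the 7 members left at a −log10 q of 3 or more, it was 0.417 (exact permutation test, adjusted p = 0.318). Groups of 2 libraries are too small for a search for single libraries that stand apart.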

How the results depend on the processing

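The number of members depended on the threshold and the lists. It was 7 with a −log10 q of at least 3, 80 with a fold of at least 3 and 77 with lists of equal size, and 1866 to 2249 when a whole replicate was left out, since a member then needs only 1 CHD4 list and has 4 Ikaros lists to avoid. With −log10 q of at least 3 the H3K27ac trend was rho = 0.513 and the trend of the difference rho = 0.417, both short of the threshold, and the earlier CHD4 share and rank differences turned to 25.9 and 19.8. With a fold of at least 3 the CHD4 rank difference was 3.40. Among regions within 1 kb of a TSS the H3K27ac share difference was -5.50 and the CHD4 share difference -31.4, and without regions over 50% soft-masked the CHD4 rank difference was -2.89. With 3 kb in place of 1 kb, 52.5% of members were at a TSS, and with chains under 20 kb 10.8% were in groups. The cause of these changes was not tested. Apart from leaving out libraries, no other alternative changed a direction or a side of the threshold.

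With libraries or a replicate left out, the H3K27ac share difference ranged from -58.5 to -28.5, its rank difference from -16.5 to -11.6, the CHD4 share difference from -44.0 to -36.2 and the CHD4 rank difference from -19.1 to -8.77. With 5 or fewer libraries the smallest possible p is 0.0625 or more, so the loss of those calls says nothing about stability. Without single H3K27ac libraries both H3K27ac trends had rho from 0.826 to 0.973. Trends over the 4 or fewer libraries of 1 replicate, or over 5 CHD4 libraries, were not tested. Samples with the same replicate number deviated together weakly for H3K27ac and not in every pair for CHD4, with no correlation above 0.1 (correlations of replicate deviations 0.0320 to 0.0802 for H3K27ac and -0.0456 to 0.0935 for CHD4, 6 pairs each). The H3K27ac lists of replicate 1 were longer than those of replicate 2 at every time, and so was their background higher. The labels name no batch, and whether the replicate number goes with one was not tested. With a replicate block, both H3K27ac trends had rho = 0.9 (exact permutation p = 0.0243, adjusted p = 0.0365) and the CHD4 trend rho = 0.75, and the mean differences are the same by construction.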
